A study of Mus musculus with 18 samples.

Results

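The T cell receptor probes are the 33 of 41174 non-control array probes whose name or description places them at the alpha, beta, gamma or delta receptor locus. They were chosen on those annotations alone, without any measured value, and the pre-T alpha chain, the CD3 chains and the zeta chain were left out. The alpha locus had 13 probes, the beta locus 12, the gamma locus 5 and the delta locus 3. Only 4 of the 33 were annotated to a constant region, 1 at each locus, and 20 to a variable region, while the descriptions of the other 9 named a chain without splitting it. The name "segment" therefore fits part of the set. Through RefSeq synonyms 6 probes reached a current segment or locus name (Trbv14 for 3 beta probes, Tcra with Trac, Trav3-4, and Trav9d-3 with Trav9n-4), and 27 did not and keep the names of the array's design.

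RNA came from thymocytes of C57BL/6 mice, the developing T cells of the thymus, obtained by dissociating and straining the organ, washing away fat and lysing red cells. On 9 Agilent arrays of 2 colours, the Cy3 channel held 1 mouse each of 6, 16 or 24 months (3 mice per age), and the Cy5 channel held 1 month thymocytes every time. All groups share the strain, and the labels name no engineered allele and no treatment for any of them. The design describes the 1 month RNA as pooled, and the sample titles number 9 samples of it without naming mice, so it is counted here as 1 control sample. No array had its dyes swapped, so an older age against 1 month cannot be told apart from Cy3 against Cy5. Values are log2 ratios of the older mouse over the 1 month sample, where a positive value is higher in the older mouse, and SE is from limma on 3 arrays per age. Of non-control spots, 79.6% to 94.2% per array cleared background well in the Cy3 channel, and 90.5% to 95.4% did so for Cy5. The labels give each array a mouse of its own in Cy3, and the small number of arrays limits the precision. In RNA from bulk tissue, fewer cells of a type and less RNA per cell cannot be told apart.

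Each T cell receptor chain is built from variable, joining and, in beta and delta, diversity segments that RAG recombinase cuts and end-joining enzymes ligate, upstream of a constant region. In the thymus beta, gamma and delta rearrange first. A productive beta chain pairs with the pre-T alpha chain, cells divide and become CD4 and CD8 double-positive, and alpha rearranges last. The delta locus lies inside the alpha locus and is deleted from the chromosome when alpha rearranges, and gamma-delta T cells form a small lineage of their own. In the RefSeq mouse gene table Tcrb is on chromosome 6, Tcrg on 13, and Tcra and Tcrd on 14.

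Of the 33 probes 32 were tested. The exception was the delta variable probe A130088N11, which stood well above background in Cy3 on 1 of 3 arrays at each age, in Cy5 on 8 of 9, and had log2 ratios between -0.39 and 0.14. Saturation affected 3 beta probes. The beta-2 constant region probe ENSMUST00000039423 and the variable probe Tcrb-V13 were saturated in Cy5 on all 9 arrays, and the first also in Cy3 on 1 array, so the 1 month level is only bounded and neither is given a fold or a direction. Probe A_51_P478172 of BC030075 was saturated in Cy5 on 7 of 9 arrays.

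With loess normalization more probes were called higher than lower against 1 month at every older age, while with median centring more were called lower than higher. At 6 months most of the higher ones were at the beta locus. A probe was called at a limma Benjamini-Hochberg adjusted p under 0.05, taken over all 37448 tested probes. At 6 months 11 of the 32 were called (16.6% of all tested probes were), at 16 months 13 (24.4%), and at 24 months 9 (21.5%). Apart from the pair saturated everywhere, 9 were higher and 0 lower at 6 months, 10 higher and 1 lower at 16 months, and 5 higher and 2 lower at 24 months. A_51_P478172 of BC030075, saturated in Cy5 on 7 of 9 arrays, is counted among the higher ones at each age. In the gene lists below, genes saturated on most Cy5 arrays were instead counted apart. Among all tested probes 8.93% were called higher and 7.66% lower at 6 months, 13.0% and 11.4% at 16 months, and 9.91% and 11.6% at 24 months. These 3 comparisons share the 1 month sample, so they are not independent of one another.

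The calls depended on the normalization. Loess, used here, removes a trend of the ratio with brightness, while median centring of each array does not. Under median centring 12 probes were called at 6 months (4 higher, 8 lower), 9 at 16 months (2 and 7) and 16 at 24 months (3 and 13). The signals that the scanner software had normalized by LOWESS gave the same sign as loess to every called probe not saturated in Cy5 on all 9 arrays. Between loess and median centring the sign held for 4 of 9 such called probes (A_51_P478172 of BC030075 counted among them) at 6 months, 8 of 11 at 16 months and 2 of 7 at 24 months. Of the 30 probes not saturated everywhere, 21, 17 and 19 lay above 0 with loess at 6, 16 and 24 months, and 10, 11 and 6 with median centring. The 1 probe called under all 3 scalings at every age was the alpha variable probe 5830404G23.

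At the alpha locus the median probe lay at 0.041, -0.061 and 0.0029 at 6, 16 and 24 months with loess, beside -0.011, -0.013 and -0.011 for all tested probes, and at -0.10, -0.24 and -0.24 with median centring. Probe 5830404G23, annotated to an alpha variable region, stood far above that median. It read 1.48, 1.02 and 0.90 at 6 months, 0.23, 0.75 and 1.26 at 16 months, and 0.96, 0.53 and 0.54 at 24 months. All 9 arrays were above 0, and the ages overlapped. The means were 1.13 ± 0.30, 0.75 ± 0.51 and 0.67 ± 0.25 (SD, n = 3 each), with SE 0.18 and limma adjusted p of 0.00761, 0.0192 and 0.0304. Median centring gave 1.10, 0.69 and 0.67. No difference between older ages passed limma's threshold (24 against 6 months -0.46, SE 0.25, adjusted p = 0.647). Its call at 24 months ended without any 1 of the 3 arrays of that age (adjusted p between 0.0693 and 0.166), at 16 months without replicate 2 or 3 (0.0954 and 0.0949), and at 6 months without replicate 2 (0.0581), with positive values throughout. With haemoglobin as a covariate, which extrapolates at 6 months (closing section), the 6 month value was 0.75 (limma adjusted p = 0.0651).

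The alpha constant region probe ENSMUST00000041337 is named so from its description, and no probe sequence was at hand to check what it reads. Its median Cy5 log2 signal was 9.70, below the 10.53 of the alpha variable probe NAP111173-1. Ratios of the constant region probe varied between arrays. It had log2 ratios of 0.71, 0.45 and -0.12 at 6 months, 0.73, 0.20 and 0.58 at 16 months, and 0.58, 0.22 and 0.66 at 24 months. Of 9 arrays 8 were above 0, and 6 month replicate 3 was below. It was called higher at 16 months (0.51, SE 0.16, limma adjusted p = 0.0451), beside adjusted p of 0.152 at 6 months and 0.0558 at 24 months. That call ended without any 1 of the 16 month arrays (adjusted p 0.0680 to 0.181) and without 6 month replicate 2 or 24 month replicate 1 or 3 (0.0540 to 0.0668), while a call at 6 months appeared without replicate 3 (0.58, adjusted p = 0.0401). At 24 months a call appeared without 6 month replicate 1 or 3 (adjusted p = 0.0423 and 0.0262), with separate channels (0.0056) and with only the ages compared (0.0438). Median centring brought the means to -0.10, 0.056 and -0.21. The probe named Tcra, which matched Tcra and Trac in RefSeq, gave means of -0.045, -0.12 and 0.0095 (SE 0.061) and was not called at any age, so the calls of the 2 probes differed.

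A further disagreement involved the probes E430018K03 and NAP102290-1, which carry the same clone in their annotation, a V-J-C alpha transcript. E430018K03 read 0.22, 0.29 and 0.29 at 6 months, -0.13, -0.20 and 0.16 at 16 months, and 0.20, 0.29 and 0.048 at 24 months. It was called higher at 6 months (0.27, SE 0.070, adjusted p = 0.0346, but -0.014 with median centring), and the 6 and 16 month arrays did not overlap. That call ended without any 1 of the 6 month arrays (adjusted p 0.0969 to 0.167) and without 24 month replicate 1 (0.0533). NAP102290-1 stayed below 0 on all 9 arrays, between -0.17 and -0.035, and was called lower at 16 months (-0.13, SE 0.035, adjusted p = 0.0331) and 24 months (-0.14, adjusted p = 0.0261). Its calls at 16 and 24 months ended without any 1 array of the age concerned, with adjusted p between 0.0755 and 0.187 at 16 months and between 0.0785 and 0.104 at 24 months. NP046970, an alpha chain not split into regions, had the second smallest p among alpha probes for a difference among ages, and read 0.12, 0.0048 and -0.036 at 6 months, 0.047, -0.12 and -0.12 at 16 months, and -0.036, -0.24 and -0.11 at 24 months (difference of 24 against 6 months -0.16, SE 0.074, adjusted p = 0.599). The other 7 alpha probes were called at no age, with mean log2 ratios from -0.12 to 0.12.

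With loess, most beta probes stood above 1 month, which median centring turned at 16 and 24 months. Leaving out the pair saturated everywhere, the median of the other 10 beta probes was 0.23, 0.12 and 0.16 at 6, 16 and 24 months, with 10, 8 and 9 of 10 above 0, and 7, 4 and 4 were called higher. At each age the called ones include A_51_P478172, saturated in Cy5 on 7 of 9 arrays. Among all tested probes 8.93%, 13.0% and 9.91% were called higher at these ages. Of the 10, both BC030075 probes, ENSMUST00000031927 and AJ249820 share a transcript in their annotation, so their calls are not independent. With median centring the medians of the 10 were 0.019, -0.13 and -0.23. The beta-2 constant region probe is described no further, since it was saturated in Cy5 throughout and in Cy3 on 1 array.

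Variable 13 (Trbv14 in RefSeq) was named in the annotation of 3 probes. No probe sequence was at hand, so whether they read that segment or another part of the transcript is not known. The unsaturated one, A_51_P407832 of BC030075, had a median Cy5 log2 signal of 13.9. The beta variable probes of other annotation had 6.69 to 9.10. Its ratios therefore cannot be read as use of that segment. Probe A_51_P407832 read 0.81, 0.63 and 0.36 at 6 months, 0.69, 0.68 and 0.65 at 16 months, and 0.81, 0.86 and 0.70 at 24 months. Every array was above 0 and the 24 month arrays lay above the 16 month arrays. The means were 0.60, 0.68 and 0.79 (SE 0.072), with limma adjusted p of 0.00324, 0.00114 and 0.00094. With median centring they were -0.18, -0.11 and -0.56. The partly saturated probe A_51_P478172 of BC030075 read 0.52, 1.02 and 0.67 at 6 months, 0.66, 0.75 and 0.68 at 16 months, and 0.61, 0.92 and 0.72 at 24 months. These ratios rest on a Cy5 signal that is only bounded on 7 of 9 arrays, so no fold is given, although the probe is counted among the beta probes called higher at each age.

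A pair of beta probes, ENSMUST00000031927 and ENSMUST00000049335, carry the same variable region in their annotation and were called in opposite directions at 24 months. ENSMUST00000031927 read 0.54, 0.43 and 0.44 at 6 months, 0.64, 0.44 and 0.48 at 16 months, and 0.27, 0.17 and 0.58 at 24 months. It was called higher at all 3 ages (0.47, 0.52 and 0.34, SE 0.073, limma adjusted p of 0.00713, 0.00261 and 0.0143), and median centring gave 0.055, 0.11 and -0.24. Its calls ended without 6 month replicate 2 (adjusted p = 0.0572) at 6 months and without 24 month replicate 1 (0.0549) at 24 months.

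AJ249820, a variable region probe that shares a transcript accession with it, read 0.38, 0.40 and 0.31 at 6 months, 0.54, 0.33 and 0.35 at 16 months, and 0.082, 0.028 and 0.47 at 24 months, all above 0. It was called higher at 6 months (0.37, SE 0.080, adjusted p = 0.0194) and 16 months (0.41, adjusted p = 0.00895) and had 0.19 at 24 months (adjusted p = 0.114). Its call at 6 months ended without replicate 1 or 2 (adjusted p = 0.0847 and 0.120) and with haemoglobin as a covariate (0.0635, extrapolated as above). With median centring both calls ended, at 0.10 and 0.11 (adjusted p = 0.546 and 0.522). ENSMUST00000049335 read 0.11, 0.11 and 0.13 at 6 months, 0.083, 0.075 and -0.069 at 16 months, and -0.22, -0.17 and -0.14 at 24 months. Its 24 month arrays lay below all others, and the mean at that age was called lower (-0.18, SE 0.039, limma adjusted p = 0.016). Without 24 month replicate 1 or 2 that adjusted p was 0.101 or 0.0534. With median centring the 24 month log2 ratio was 0.0054, so its sign turned.

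Among the other beta probes, NP050138, a V13D2J2.6 chain, read 0.26, 0.26 and 0.19 at 6 months, 0.19, 0.060 and 0.088 at 16 months, and 0.22, 0.082 and 0.34 at 24 months. It was called higher at 6 months (0.24, SE 0.051, adjusted p = 0.0187) and 24 months (0.21, adjusted p = 0.0208), and had -0.065 and -0.22 at these ages with median centring. The variable probe ENSMUST00000031915 read 0.22, 0.25 and 0.20 at 6 months, 0.037, -0.22 and -0.032 at 16 months, and 0.0082, 0.20 and 0.16 at 24 months, with a call at 6 months (0.22, SE 0.055, adjusted p = 0.0296). The 6 month value was 0.47 with processed signals, which ended the call (adjusted p = 0.188), as did the deposited value table (0.172), and 0.64 with median centring. AK018014, an unsplit beta chain, read 0.14, 0.28 and 0.21 at 6 months, -0.086, -0.053 and 0.18 at 16 months, and 0.046, 0.20 and 0.025 at 24 months. It was called at 6 months (0.21, SE 0.059, adjusted p = 0.0421), and had -0.017 with median centring. None of these 3 probes kept its 6 month call without 6 month replicate 1 or without replicate 2, and NP050138 lost the 24 month call without replicate 1 or 3 of that age (adjusted p = 0.0966 and 0.0957). NP063865 and X01643 were called at no age, with means from -0.0064 to 0.19.

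At the gamma locus no probe was called at 6 or 24 months, where 16.6% and 21.5% of all tested probes were. At 16 months 3 of 5 were called higher, beside 13.0% of all tested probes. The constant region probe ENSMUST00000003143 read -0.080, -0.29 and -0.23 at 6 months, 0.75, 0.84 and -0.0087 at 16 months, and 0.29, -0.28 and 0.059 at 24 months. Replicates 1 and 2 of 16 months stood apart from the other 7 arrays, and replicate 3 did not share the rise. Its 16 month mean was 0.53 (SE 0.16, limma adjusted p = 0.0395), and 0.024 with median centring, which called it lower at 6 months (-0.70) and 24 months (-0.74). NAP102673-1, an aberrantly rearranged gamma transcript, was also highest on replicates 1 and 2 of 16 months. It read -0.019, -0.18 and -0.11 at 6 months, 0.43, 0.36 and 0.034 at 16 months, and 0.033, -0.18 and 0.0031 at 24 months. Its 16 month mean was 0.27 (SE 0.075, adjusted p = 0.0314), and -0.14 with median centring. C920012J21, a gamma variable probe, read 0.082, 0.12 and 0.046 at 6 months, 0.055, 0.26 and 0.13 at 16 months, and 0.094, 0.11 and 0.021 at 24 months. Its ages overlapped, and it was called at 16 months too (0.15, SE 0.043, adjusted p = 0.0391). Without 16 month replicate 1 the 16 month adjusted p was 0.161 for the constant probe and 0.146 for NAP102673-1, and without replicate 2 it was 0.230, 0.172 and 0.241 for the constant probe, NAP102673-1 and C920012J21. C920012J21 also missed the threshold without replicate 3 (0.104), and both it and the constant probe missed it without 6 month replicate 2 or 3 or 1 of the 24 month arrays (0.0512 to 0.0603).

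The variable probe ENSMUST00000057273, annotated to the same gamma variable region as C920012J21, was not called at 16 months (0.056, 0.061 and -0.079). It read 0.0059, -0.18 and -0.16 at 6 months, and -0.013 and -0.018 at 24 months, where the spot on replicate 2 was an outlier and was left out. The remaining gamma variable probe, NAP102129-1, was below 0 on all 9 arrays, between -0.15 and -0.013, and was called at no age.

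The delta constant region probe E430005G12, named so from its description alone, was higher at 16 months. It read 0.15, -0.077 and 0.0085 at 6 months, 0.34, 0.54 and 0.11 at 16 months, and -0.031, 0.15 and 0.20 at 24 months. Replicates 1 and 2 of 16 months were again the highest arrays. The 16 month mean was 0.33 (SE 0.080, limma adjusted p = 0.0194), and 0.0064 with median centring. Without replicate 1 or 2 of that age the adjusted p was 0.0659 or 0.132. The delta variable probe AK038197 read 0.00080, -0.0013 and -0.15 at 6 months, 0.044, -0.14 and -0.024 at 16 months, and -0.084, -0.13 and 0.041 at 24 months, and was called at no age.

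Haemoglobin RNA, a sign of red cells left in the suspension, moved with part of this pattern. The mean log2 ratio of 8 haemoglobin probes was -1.24, -1.22 and -0.78 on the 6 month arrays, 1.34, 0.92 and -0.47 on the 16 month arrays, and -1.17, 0.30 and 0.97 on the 24 month arrays. It was high on the 2 arrays where the gamma and delta constant probes were high, and as high on 24 month replicate 3, where the gamma constant probe stood at 0.059 and the delta constant probe at 0.20. With haemoglobin as a covariate the 16 month means were 0.47 for the gamma constant probe (adjusted p = 0.0980) and 0.23 for NAP102673-1 (adjusted p = 0.0833), while the delta constant probe was called (0.25, adjusted p = 0.0416). Over all its alternatives the gamma constant probe's adjusted p at 16 months ran from 0.0026 to 0.936, and that of NAP102673-1 from 0.00085 to 0.494. Lists of other cell types were also high on some of these arrays. The 13 B and plasma cell markers, all tested, averaged 0.083, -0.0095 and 0.045 at 6 months, 0.75, 0.45 and 0.30 at 16 months, and 0.59, 0.16 and 0.47 at 24 months. The 13 NK and cytotoxic markers, all tested, averaged 0.043, -0.044 and 0.067, then 0.53, 0.45 and 0.16, then 0.36, 0.070 and 0.32. The 14 tested of 15 mature single-positive T cell markers averaged 0.13, -0.021 and 0.048, then 0.63, 0.54 and 0.35, then 0.68, -0.066 and 0.42. At 16 months 7, 5 and 6 genes of these lists were called higher, beside 13.0% of all tested probes. Their part in the result was not tested.

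Between the older ages, where dye is the same on both sides, no receptor probe was called. Limma called 0 of the 32 at 24 against 6 months, 16 against 6 months and 24 against 16 months (0% of all tested probes in each), and 0 by the F test across the 3 ages (0% of all). At an unadjusted p under 0.05 the counts were 1, 6 and 5 for the 3 pairs and 5 for the F test, beside 8.52%, 8.04%, 4.40% and 7.14% of all tested probes. A fit to separate channels, which treats the 9 Cy5 channels as samples, called 1 receptor probe at 24 against 6 months, 3 at 16 against 6 months, 0 at 24 against 16 months and 2 by the F test. At 24 against 6 months that was ENSMUST00000049335 (-0.27, adjusted p = 0.0296). At 16 against 6 months they were the gamma constant probe (0.73, adjusted p = 0.0484), NAP102673-1 (0.39, adjusted p = 0.032) and E430018K03 (-0.34, adjusted p = 0.0485).

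In the limma fit to ratios, the gamma constant probe differed by 0.73 at 16 against 6 months (SE 0.22, adjusted p = 0.60) and by -0.50 at 24 against 16 months (adjusted p = 0.909). NAP102673-1 differed by 0.38 (SE 0.11, adjusted p = 0.60) at 16 against 6 months and the delta constant probe by 0.30 (SE 0.11, adjusted p = 0.61). ENSMUST00000049335 differed by -0.29 at 24 against 6 months (SE 0.055, adjusted p = 0.437). Over 18 alternatives, median centring among them, these differences kept their sign. Some of these alternatives cannot change a difference, so their sign was fixed in advance. They are the probe filters, the replicate block, only the ages compared, and leaving out an array of the third age. The differences ranged from 0.55 to 1.00 for the gamma constant probe, 0.26 to 0.50 for NAP102673-1, 0.083 to 0.41 for the delta constant probe and -0.66 to -0.22 for ENSMUST00000049335. Of the 31 probes measured on all arrays, 0 had 3 arrays all higher and 1 all lower at 24 against 6 months, where 15.0% of all probes did not overlap. At 16 against 6 months these counts were 2 and 3 (13.8%), and at 24 against 16 months 1 and 2 (10.1%).

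Calls were also counted by locus. Of 13 alpha probes 2, 3 and 2 were called at 6, 16 and 24 months. Among all tested probes 16.6%, 24.4% and 21.5% were called, so the alpha calls did not exceed these shares. Of 10 beta probes not saturated everywhere 7, 4 and 5 were called, the partly saturated A_51_P478172 among them each time. Of 5 gamma probes 3 were called, and of 2 tested delta probes 1, all at 16 months. At 16 months the gamma and delta medians were both 0.15, and at 24 months -0.016 and 0.026. With median centring they were -0.14 and -0.067 at 16 months, and -0.63 and -0.26 at 24 months. No test compared the loci with one another, and the gamma and delta counts rest on 5 and 2 tested probes. The 4 beta probes called at 16 months were both BC030075 probes, ENSMUST00000031927 and AJ249820. They share a transcript in their annotation, so their calls are not independent, and they are also among the 7 of 6 months.

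The receptor's partner genes were described from lists of the pathway. In the list of the receptor complex and pre-T alpha chain, all 11 genes were tested, and 3 unsaturated genes were called higher and 1 lower at each age. Among all tested probes 8.93%, 13.0% and 9.91% were called higher at 6, 16 and 24 months, and 7.66%, 11.4% and 11.6% lower. Median centring turned the sign of 3, 2 and 3 of these unsaturated called genes. A further 2 called genes (Cd8b1 and Thy1) were saturated on most Cy5 arrays. Each gene was read from its brightest probe. Among the called genes named below, some had another probe of opposite sign. These were Cd247 and Xrcc4 (6 months), Xrcc4, Poll, Myb and Il7r (16 months) and Myb (24 months). Stat5b and Cbfb are left out of this statement, so whether their other probes had the same sign is not described. Cd3g, a CD3 chain that carries the receptor's signal, had 0.38, 0.51 and 0.41 at 6, 16 and 24 months (SE 0.088), but -0.28, -0.14 and -0.67 with median centring. Lck, the kinase that starts that signal, had 0.28, 0.38 and 0.33, and Cd247, the zeta chain, was called at 6 months only (0.34). Both were negative at all 3 ages with median centring. Cd8a, a co-receptor chain, was lower at all ages under both scalings (-0.35, -0.45 and -0.43, SE 0.056). Cd4, the other co-receptor, was called at 16 months (0.31), and was above 0 with median centring.

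Of 14 tested genes of V(D)J recombination and end joining, 3 unsaturated genes were called higher and 2 lower at 6 months, 4 and 2 at 16 months, and 1 and 2 at 24 months. Among all tested probes 8.93%, 13.0% and 9.91% were called higher at these ages, and 7.66%, 11.4% and 11.6% lower. Median centring turned the sign of 1 of 5, 2 of 6 and 2 of 3 of the unsaturated called genes. The recombinase genes Rag1 and Rag2 were called at no age. Lig4, the ligase that closes the joints, had 0.56, 0.60 and 0.40 at 6, 16 and 24 months, and 0.21, 0.24 and -0.081 with median centring. Its partner Xrcc4 was lower at every age under both scalings (-0.26, -0.33 and -0.42). Prkdc, the kinase of end joining, was called at 6 and 16 months (0.25 and 0.42), as were Xrcc5 at both ages (0.30 and 0.24) and its Ku partner Xrcc6 at 16 months only (0.44). At 16 months Xrcc5 and Xrcc6 were below 0 with median centring. The polymerase gene Poll was called lower at all 3 ages (-0.17, -0.16 and -0.23), with positive values of 0.056 and 0.063 at 6 and 24 months under median centring.

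Of 20 regulators of receptor locus transcription, 9 were called higher and 2 lower at 6 months, and 8 and 2 at 16 and at 24 months, beside the shares of all tested probes given above. Median centring turned the sign of 4 of 11, 5 of 10 and 7 of 10 of these called genes at 6, 16 and 24 months. Bcl11b, a factor that commits cells to the T lineage, had 1.02, 0.87 and 0.84, and stayed above 0 with median centring (0.49, 0.37 and 0.057). Myb, which acts in thymocyte development, had 0.85, 0.52 and 0.83, and 0.085, -0.23 and -0.48 with median centring. Ets1 was called at 6 months (0.76), Il7r, the receptor whose signal opens the gamma locus, at 16 months (0.77), and both kept their sign with median centring. Stat5a, which carries that signal, had 0.54, 0.51 and 0.51 at the 3 ages, with -0.24 at 24 months under median centring. The 2 genes called lower were Stat5b (-0.38, -0.29 and -0.46 at 6, 16 and 24 months) and Cbfb (-0.23, -0.36 and -0.32). Both were called at all 3 ages and stayed below 0 with median centring.

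Of 16 tested of 19 gamma-delta T cell genes, 2 were called higher and 1 lower at 6 months, 5 and 1 at 16 months, and 7 and 0 at 24 months. Among all tested probes 8.93%, 13.0% and 9.91% were called higher at these ages, and 7.66%, 11.4% and 11.6% lower. Median centring turned the sign of 2 of 3, 3 of 6 and 5 of 7 of these called genes. Cd163l1, a scavenger receptor known from gamma-delta T cells, read 0.49, 0.36 and 0.51 at 6 months, -0.0099, 1.63 and 2.12 at 16 months, and 3.10, 1.94 and 2.35 at 24 months. It was called at 16 months (1.25, SE 0.35, limma adjusted p = 0.0326) and 24 months (2.46, adjusted p = 0.00313), and the 24 month arrays did not overlap those of 6 months (difference 2.01, adjusted p = 0.455). With median centring it had 0.39, 1.04 and 2.05. Its highest array, 24 month replicate 1, had 0.29 for the gamma constant probe and -0.031 for the delta constant probe, so its order over arrays was not theirs. Il1r1, an interleukin-1 receptor gene, was called at 16 months (1.15, adjusted p = 0.0398), where it read 1.16, 2.03 and 0.24. Etv5 was called lower at 6 and 16 months (-0.19 and -0.14) and kept that sign with median centring.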

How the data were processed

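RNA of 18 samples was hybridised on 9 arrays of 2 colours, with 43790 features each. The deposited scanner files hold spot intensity values and, per the file headers, were written by Feature Extraction 7.5.1, while the submitters' processing notes name 7.1; the files of both channels of an array were identical. Per the file headers the processed signals used LOWESS with a smooth factor of 0.25. The deposited value table holds a score, which matched the z-score of log10 processed signal within each channel.

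With limma 3.58.1 (R 4.3.3), mean signals were corrected by normexp (offset 50), normalized by loess, and expressed as log2 ratios of older (Cy3) over 1 month (Cy5), computed from the deposited intensities. Outlier spots were left out, 34 to 52 per array and 159 and 179 on replicates 1 and 3 of 24 months. Probes that cleared background well on the 3 Cy3 channels of at least 1 age, or on all 9 Cy5 channels, were tested with 1 mean per age over 9 arrays, eBayes, and two-sided p-values adjusted over 37448 probes. The test was checked on simulated data. Python 3.11.15, numpy 2.4.6 and pandas 2.3.3 made the tables. Alternatives are given in the closing section.

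The probes, gene lists and tests were chosen with earlier results of these data known. Values on each array are given for constant region probes, for the 3 tested probes of a locus with the smallest F test p among ages, and for up to 4 called probes with the largest rise and fall in a comparison; other probes are given by range and counts, and some also by array after their values were seen. Up to 3 called genes with the largest change are named per pathway list and comparison. Further called genes (Cd4, Stat5a, Stat5b, Cbfb, Xrcc5, Poll, Etv5) and the uncalled Rag1 and Rag2 were named after their values were seen. Same-numbered samples of different ages did not deviate together (correlations from -0.47 to 0.22), so replicate numbers were not used as a block. A gene of the pathway lists that the rule names is not reported here.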

Additional observations from a re-analysis of the deposited data

Results flagged for a closer look

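Among the 33 receptor probes, 4 had a sample far from the rest among the 9 Cy5 channels, which all hold 1 month thymocytes; chance flags about 1 in 20 such groups. All values are normalized log2 signals. On the array of 24 month replicate 1, A730076H11 had its highest Cy5 value, 7.67 (others 7.20 to 7.35), NP046970 its highest, 7.45 (others 6.46 to 6.95), and NAP102673-1 its lowest, 9.17 (others 9.30 to 9.42). On the array of 6 month replicate 1, ENSMUST00000039423, saturated in Cy5, had its highest value, 15.2 (others 14.62 to 14.88).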

How the results depend on the processing

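Called receptor probes numbered 11, 13 and 9 at 6, 16 and 24 months. At 6 months there were 7 with the deposited value table and 2 with haemoglobin as a covariate, and 3 to 11 with 1 array left out (6 without 6 month replicate 1, 3 without replicate 2). The covariate fit reads each age at a haemoglobin log2 ratio of 0, above all 6 month arrays (-1.24, -1.22 and -0.78). Its 6 month values are therefore an extrapolation. At 16 months there were 8 with the scanner's processed signals, 8 with the haemoglobin covariate and 6 with only the ages compared, and 6 to 13 with 1 array left out (8 without 16 month replicate 1, 6 without replicate 2). At 24 months there were 16 with median centring, and 4 to 10 with 1 array left out (4 without 24 month replicate 1). Over all tested probes, the calls higher and lower with median centring were 9188 and 10435 at 6 months, 6876 and 9775 at 16 months, and 11714 and 14839 at 24 months, against 3345 and 2870, 4851 and 4280, and 3711 and 4335 with loess; with processed signals they were 2851 and 1781, 4277 and 2469, and 4357 and 4978. Separate channels called 1 probe at 24 against 6 months, 3 at 16 against 6 months and 2 across ages, where limma on ratios called 0; with 1 array left out these stayed at 0. With the replicate block 8, 12 and 8 were called at 6, 16 and 24 months and 0 between older ages.

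Median centring turned the sign of ENSMUST00000041337 at 6 (-0.10) and 24 months (-0.21), E430018K03 at 6 (-0.014), A_51_P478172 of BC030075 at 6 (-0.10), 16 (-0.15) and 24 (-0.73), A_51_P407832 at 6 (-0.18), 16 (-0.11) and 24 (-0.56), ENSMUST00000031927 at 24 (-0.24), NP050138 at 6 (-0.065) and 24 (-0.22), AK018014 at 6 (-0.017), ENSMUST00000049335 at 24 (0.0054), ENSMUST00000003143 at 24 (-0.74), NAP102673-1 at 16 (-0.14), and E430005G12 at 6 (-0.26) and 24 months (-0.35). ENSMUST00000003143 at 24 months was also negative with the deposited table (-0.016 z units) and without replicate 1 (-0.11 to 0.18 over arrays left out), and E430005G12 at 6 months without replicate 1 (-0.034 to 0.081 over arrays left out). The cause was not tested. Of 27 calls of probes not saturated in Cy5 on all arrays, 3 of them of A_51_P478172, 27 held without the filter on dim probes, 26 with separate channels, 22 with the block, 20 with the deposited table, 19 with processed signals, 16 with only the ages compared, 15 with the haemoglobin covariate and 7 with median centring. Slide or scan day as a block was not run, since each slide held 1 array. Saturation limits the beta-2 constant probe and Tcrb-V13 to a bound in Cy5, and the first also in Cy3 on 1 array.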
